A study of Mus musculus with 6 samples.

Results

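Semaphorin signalling was followed through 10 genes, chosen by gene name from the 24413 genes of the deposited table, in tendon cells exposed to medium from sensory ganglion cultures. They were 6 class 3 semaphorins (Sema3a, Sema3b, Sema3c, Sema3d, Sema3e and Sema3f), Sema7a, the neuropilins Nrp1 and Nrp2, and the plexin Plxnd1. The labels name the cells Tppp3+ and take them from Achilles tendons of 3 male mice, 12 weeks old, of the genotype Tppp3ECE/+;R26RtdT-CreERT2;Scx-GFP, which every library shares. Cells were sorted with gates on GFP and on the red reporter tdT. For 24 h, the cells of 3 control libraries were kept in medium with 1% FBS (fetal bovine serum), and those of 3 conditioned libraries in DRG CM, medium conditioned by dissociated lumbar dorsal root ganglia of 3 male C57BL/6J mice, also 12 weeks old. The ganglion cultures had been grown with the anti-mitotic reagents 5-fluoro-2-deoxyuridine and uridine, each at 20 µM, before the medium to be conditioned was added. Ganglion products, drug residue and use of nutrients cannot be told apart in this design. The submitters describe biological replicates, but the labels do not say which animals gave which library, and p-values reflect only how these libraries vary.

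Semaphorins are guidance proteins that act on cells through plexins. Class 3 semaphorins are secreted, and most bind a neuropilin, which joins a plexin that signals to the cytoskeleton. Sema3e is an exception that can bind Plxnd1 directly. Sema7a, although grouped here with the secreted members, is held at the cell surface by a lipid anchor and signals through β1 integrins and plexin C1. Neuropilins also bind vascular endothelial growth factors.

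Of the 10 genes, 4 were lower with conditioned medium and 0 were higher at an adjusted p below 0.05 in limma, against 2.49% of the 11678 genes tested that were lower and 4.04% that were higher (6.53% in either direction). The 4 that fell were semaphorins: Sema3c, Sema3d, Sema3f and Sema7a. Sema3c had the largest difference of the 10, and its mean with conditioned medium was 54.3% of the control mean. At an unadjusted p below 0.05, 2 receptors, Nrp2 and Plxnd1, were higher, as were 11.2% of all genes tested. The alternative fit voom, made on fragment counts, called Nrp2 among 5 of the 10 genes (9.7% of all genes by that fit). Levels are FPKM (fragments per kilobase of gene and per 1e+06 fragments, as scaled by the authors), which puts genes of different length on 1 scale. Differences are in log2(FPKM + 1), conditioned minus control (SE, standard error), and this scale understates changes of genes near 1 FPKM. Adjusted p-values are limma's with Benjamini-Hochberg adjustment over all genes tested. Each of the 10 genes passed the low-expression filter, an average of 1 FPKM or more across all 6 libraries.

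In control medium Sema3c was the most abundant of the 10, followed by Nrp1, Plxnd1, Nrp2, Sema7a, Sema3f, Sema3b, Sema3a, Sema3d and Sema3e. The ranges of neighbours in this order overlapped for Sema3b with Sema3a and for Sema3d with Sema3e, and were separate for the other pairs. With conditioned medium the order was the same apart from Sema3e and Sema3d, which changed places with separate ranges (1.64 to 2.33 FPKM for Sema3e and 1.11 to 1.31 FPKM for Sema3d). Sema7a and Sema3f, separate in control medium, then overlapped (5.13 to 6.34 and 4.96 to 5.51 FPKM).

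**Figure D1:**
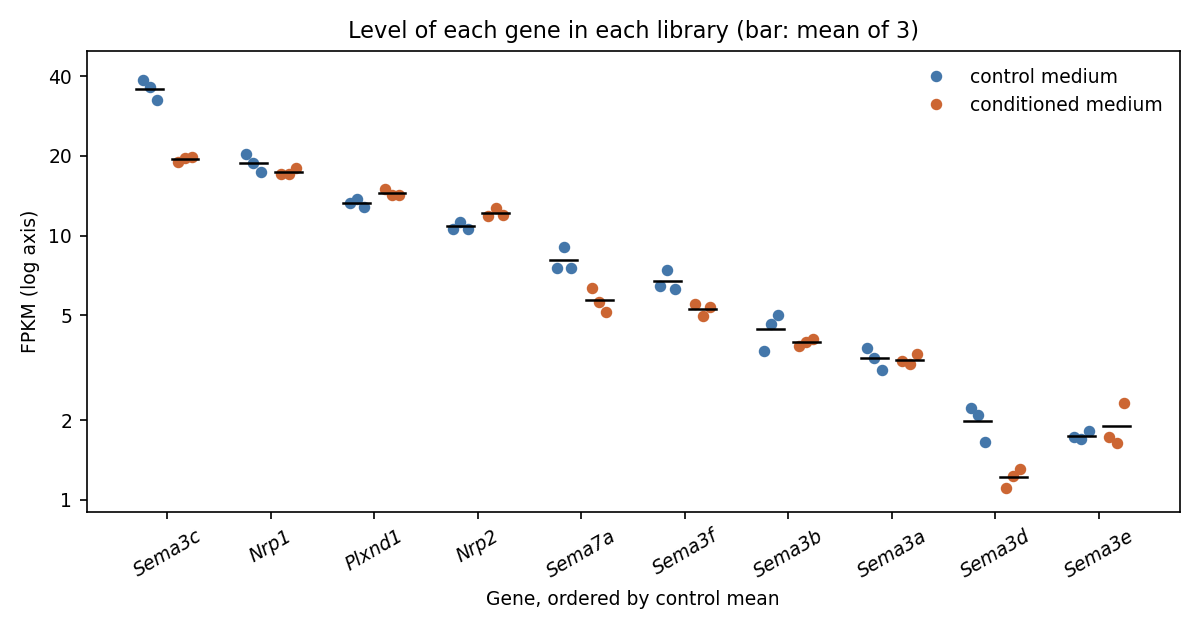
FPKM of each gene (log axis) in the 3 control and 3 conditioned libraries, with genes ordered by their control mean and a bar at each group's mean. The Sema3c groups stand apart (32.6 to 38.8 against 19.0 to 19.8 FPKM), while those of Sema3a, Sema3b, Sema3e and Nrp1 overlap.

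Sema3c (ENSMUSG00000028780) encodes a secreted ligand of both neuropilins, known for its part in heart outflow tract development. It lies on chromosome 5 from 17574281 to 17730268 (mm10, plus strand). Its level was 38.8, 36.5 and 32.6 FPKM in control replicates 1, 2 and 3, and 19.0, 19.7 and 19.8 FPKM in conditioned replicates 1, 2 and 3. All conditioned libraries lay below all control libraries, and the control libraries were spread more widely. The means were 36.0 ± 3.16 and 19.5 ± 0.433 FPKM (SD, n = 3 each), and the difference was -0.85 ± 0.06 SE (adjusted p = 1.4e-04 in limma). From 2647 to 6838 fragments per library stand behind these levels. The call held in all 15 other settings tried, with adjusted p-values up to 0.0028.

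Sema3d (ENSMUSG00000040254), a secreted semaphorin known in heart and vascular patterning, lies on the same chromosome from 12383385 to 12588948 (plus strand). It was far less abundant, with 2.22, 2.09 and 1.66 FPKM in control replicates 1 to 3 and 1.11, 1.24 and 1.31 FPKM in conditioned replicates 1 to 3. The groups did not overlap. Mean levels were 1.99 ± 0.292 and 1.22 ± 0.102 FPKM (SD, n = 3 each), with a difference of -0.43 ± 0.09 SE (adjusted p = 0.031 in limma). With a pseudocount of 0.1 in place of 1 the difference was -0.66. Only 200 to 471 fragments per library were behind these levels, and the adjusted p rose above 0.05 when any 1 library other than control replicate 3 was left out, up to 0.12.

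Sema3f (ENSMUSG00000034684), a secreted ligand with a preference for Nrp2, lies on chromosome 9 from 107681500 to 107710475 (minus strand). It had 6.46, 7.42 and 6.30 FPKM in control replicates 1 to 3 and 5.51, 4.96 and 5.35 FPKM in conditioned replicates 1 to 3. Every conditioned library was below every control library, with means of 6.73 ± 0.608 and 5.27 ± 0.283 FPKM (SD, n = 3 each). The difference was -0.30 ± 0.07 SE (adjusted p = 0.043 in limma). This call did not hold when any 1 of the 6 libraries was left out, where the adjusted p ran from 0.053 to 0.16.

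Sema7a (ENSMUSG00000038264), the anchored semaphorin, lies on chromosome 9 from 57940112 to 57962865 (plus strand). Control replicates 1 to 3 had 7.56, 9.07 and 7.55 FPKM, and conditioned replicates 1 to 3 had 6.34, 5.62 and 5.13 FPKM. The groups were separate, with control replicate 2 the highest of all. Means were 8.06 ± 0.878 and 5.70 ± 0.611 FPKM (SD, n = 3 each), and the difference was -0.44 ± 0.09 SE (adjusted p = 0.026 in limma). The adjusted p rose above 0.05 without control replicate 2, control replicate 3, conditioned replicate 2 or conditioned replicate 3, up to 0.10.

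**Figure D2:**
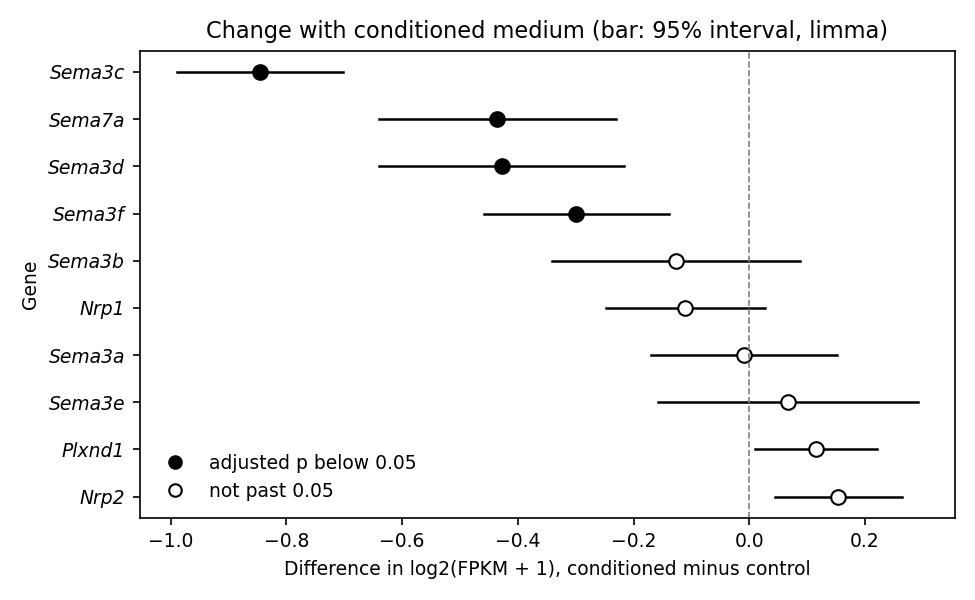
Difference in log2(FPKM + 1) between conditioned and control medium for each gene, with its 95% interval from limma. Filled points passed an adjusted p of 0.05, and these are Sema3c (-0.85), Sema7a (-0.44), Sema3d (-0.43) and Sema3f (-0.30), all below 0.

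Upstream sequence was matched in the RefSeq promoter table (GRCm38.p6) for 8 of the 10 genes, all but Sema3b and Sema3f. The stretches printed here are shown because 3 of the genes that fell together differ in their upstream sequence. Capitals mark the GC box GGGCGG, a motif bound by Sp1 family factors. The Sema3c stretch is chr5:17574651-17574680 (plus strand), bases -165 to -136 from the RefSeq start, and lies inside the longest annotated transcript. The Sema7a stretch is chr9:57940022-57940051 (plus strand), bases -90 to -61. The Sema3d stretch is chr5:12382916-12383155 (plus strand), bases -250 to -11, and has no GC box.
Sema3c: ccggctGGGCGGtgcgcccgggcagcctca
Sema7a: tgcgagGGGCGGgggggagGGGCGGggtgg
Sema3d: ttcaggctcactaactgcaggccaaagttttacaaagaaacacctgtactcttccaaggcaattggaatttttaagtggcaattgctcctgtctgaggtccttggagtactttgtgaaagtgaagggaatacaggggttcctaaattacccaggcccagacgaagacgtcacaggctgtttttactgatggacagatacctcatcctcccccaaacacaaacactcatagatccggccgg

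Over the 250 bases before the start, Sema3c had 78.4% G and C, 39 CG dinucleotides and 3 GC boxes on either strand. Sema7a had 66.4% G and C, 17 CG dinucleotides and 2 GC boxes, and Sema3d 46.8%, 4 and 0. The 3 genes thus lie on both sides of the median of all 32851 windows, 52.4% G and C and 6 CG dinucleotides. A GC box was found in 6 of the 8 matched genes and in 32.7% of all windows, and Sema3a and Sema3d were without one. The windows of Sema3a, Sema3c and Nrp1, and the end of that of Nrp2, lie inside the annotated gene, so they precede a start within it. Of the other motifs searched on both strands, the TATA box TATAAA (12.4% of windows), the E-box CACGTG (6.02%), the cAMP response element TGACGTCA (1.55%), the gamma-activated site TTCNNNGAA (7.02%), the AP-1 site (6.75%) and the core of the interferon response element (2.98%) had 0 matches in the 8 windows. The TEAD motif GGAATG (12.6%) matched in that of Plxnd1. A match describes letters and is not evidence of binding.

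The other 3 class 3 semaphorins did not pass. Sema3a (ENSMUSG00000028883, chromosome 5 from 13125414 to 13602565, plus strand), the classic repellent of sensory axons, had 3.74, 3.44 and 3.10 FPKM in control replicates 1 to 3 and 3.36, 3.26 and 3.56 FPKM in conditioned replicates 1 to 3. The groups overlapped, with a 95% interval of the difference from -0.17 to 0.15 and an adjusted p of 0.96 in limma. Sema3b (ENSMUSG00000057969, chromosome 9 from 107597674 to 107609229, minus strand), which lies near Sema3f, had 3.66, 4.62 and 5.01 FPKM and 3.82, 3.95 and 4.07 FPKM in the same order. Its control libraries spanned the whole conditioned range, and the difference was -0.13 (95% interval -0.34 to 0.09, adjusted p = 0.52 in limma). Sema3e (ENSMUSG00000063531, chromosome 5 from 14025276 to 14256689, plus strand), the direct ligand of Plxnd1, had 1.73, 1.70 and 1.83 FPKM and 1.72, 1.64 and 2.33 FPKM. Conditioned replicate 3 alone stood above the rest, and the difference was 0.07 (95% interval -0.16 to 0.29, adjusted p = 0.77 in limma). The value found for Sema3f (-0.30) lies inside the interval of Sema3b and outside those of Sema3a and Sema3e. Whether the difference of 1 semaphorin differed from that of another was not tested.

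The summed level of the 6 class 3 semaphorins was 50.5 to 56.7 FPKM across control libraries and 34.6 to 36.5 FPKM across conditioned libraries. Sema3c made up 68.6%, 65.5% and 64.6% of that sum in control replicates 1 to 3 and 55.1%, 56.7% and 54.4% in conditioned replicates 1 to 3. It was the largest contributor in every library. Without Sema3c the sum was 18.3 ± 0.816 FPKM for control and 15.7 ± 0.805 FPKM for conditioned medium (SD, n = 3 each).

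None of the 3 receptors passed in limma. Nrp1 (ENSMUSG00000025810, chromosome 8 from 128358604 to 128503363, plus strand), a receptor for class 3 semaphorins and for vascular endothelial growth factor, had 20.3, 18.9 and 17.3 FPKM in control replicates 1 to 3 and 17.1, 17.0 and 17.9 FPKM in conditioned replicates 1 to 3. The ranges overlapped through control replicate 3, with a difference of -0.11 (95% interval -0.25 to 0.03, adjusted p = 0.36 in limma). Nrp2 (ENSMUSG00000025969, chromosome 1 from 62703285 to 62818695, plus strand), its paralogue, had 10.6, 11.3 and 10.6 FPKM and 11.9, 12.7 and 11.9 FPKM in the same order. All conditioned libraries were above all control libraries, and the difference was 0.15 ± 0.05 SE, with an adjusted p of 0.11 in limma and 0.034 in voom. Over all alternatives it ran up to 0.32. Plxnd1 (ENSMUSG00000030123, chromosome 6 from 115954811 to 115995005, minus strand), the plexin that joins neuropilins or binds Sema3e, had 13.2, 13.8 and 12.8 FPKM and 15.0, 14.2 and 14.2 FPKM. These groups did not overlap either, with a difference of 0.12 ± 0.05 SE (adjusted p = 0.21 in limma).

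Of the 10 genes, 4 had every conditioned library below every control library and 2 had every conditioned library above. Over all genes tested, 11.6% and 14.3% were separated in these directions, 26.0% in all. The median difference of the 10 genes was -0.12, and that of all genes tested was 0.0052.

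The summed neuropilin level was 29.7 ± 1.55 FPKM for control and 29.5 ± 0.486 FPKM for conditioned medium (SD, n = 3 each). Within it, the ratio of Nrp2 to Nrp1 was 0.522, 0.598 and 0.614 in control replicates 1 to 3 and 0.696, 0.746 and 0.665 in conditioned replicates 1 to 3. The ratio was higher in every conditioned library than in any control library, although neither neuropilin passed on its own. Ratios and shares are given as descriptions and were not tested. The ratio of Sema3c to Nrp1 was 1.91 ± 0.0272 for control and 1.13 ± 0.0272 for conditioned medium, and that of Sema3c to Nrp2 was 3.32 ± 0.306 and 1.61 ± 0.0565 (SD, n = 3 each). In both media the ligand's FPKM exceeded that of either neuropilin.

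**Figure D3:**
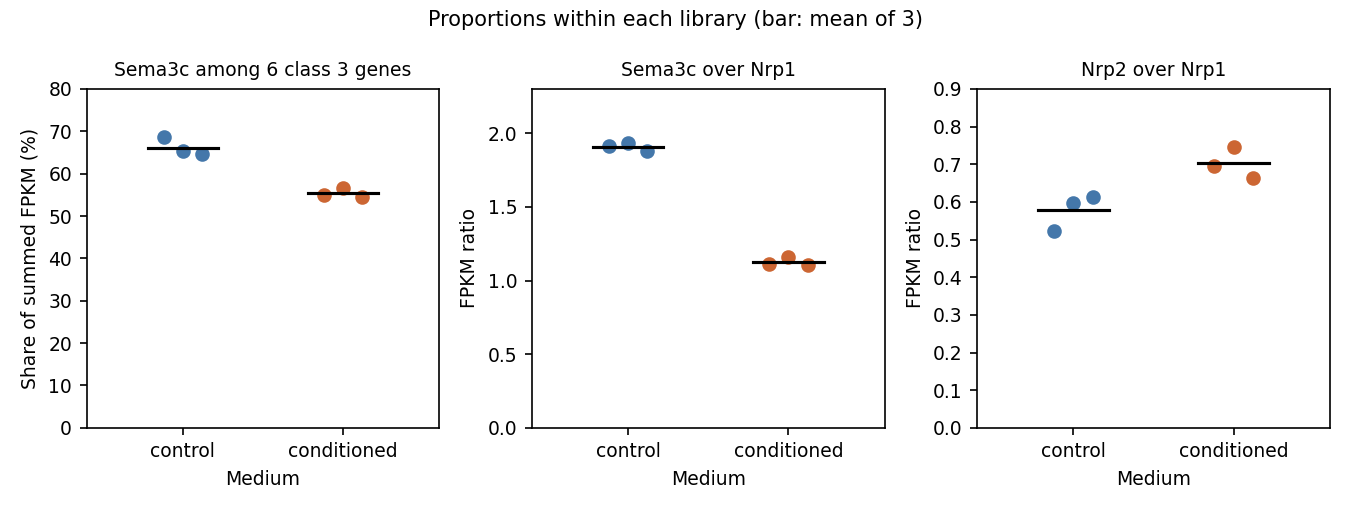
Share of Sema3c in the summed FPKM of the 6 class 3 semaphorins (left, in percent), ratio of Sema3c to Nrp1 (middle) and ratio of Nrp2 to Nrp1 (right), by library, with bars at group means. The groups do not overlap in any panel: the share is 64.6% or more in control and 56.7% or less in conditioned libraries, and Nrp2 over Nrp1 is 0.614 or less and 0.665 or more.

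Other genes of the pathway mostly did not pass. The 6 lists, with 78 genes of which 55 were tested, held 3 higher and 3 lower genes, and their median difference was -0.01. Over all genes tested, 4.04% were higher and 2.49% lower, with a median difference of 0.0052. Of 13 other semaphorins 4 were tested, with 0 past the threshold in limma, 0 in voom and 1 at an unadjusted p below 0.05 (Sema4b, lower). The most abundant were the membrane semaphorins Sema4c (7.40 ± 0.181 FPKM in control, 7.24 ± 0.692 FPKM with conditioned medium) and Sema6c (5.17 ± 0.672 and 4.59 ± 0.404 FPKM). Sema3g, the remaining class 3 semaphorin, was at 0 to 0.0938 FPKM. Of 8 other plexins 5 were tested, with 0 past the threshold in limma, 1 in voom (Plxnb1, lower) and 2 at an unadjusted p below 0.05 (Plxnb1 and Plxna3, both lower), named after their values were seen. The most abundant plexins, Plxnb2 and Plxna1, were far above Plxnd1. Plxnb2, a receptor for class 4 semaphorins, had 92.4 ± 2.14 and 93.6 ± 0.346 FPKM, and Plxna1, a partner of neuropilins, had 63.7 ± 2.74 and 63.1 ± 0.295 FPKM. Plxnc1, the plexin of Sema7a, was at 0.163 to 0.232 FPKM. Of 8 co-receptors 5 were tested, with 0 past the threshold in limma, 0 in voom and 0 at an unadjusted p below 0.05. Among them Itgb1, the integrin chain used by Sema7a, had 384 ± 7.64 and 399 ± 5.28 FPKM, and Ptk7, a tyrosine kinase-like receptor, 57.0 ± 0.967 and 53.6 ± 1.93 FPKM.

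The growth factors that share neuropilins included rises. Of 8 VEGF ligands and receptors 4 were tested, 2 rose and 0 fell, against 4.04% and 2.49% of all genes tested. At an unadjusted p below 0.05, Vegfa, Vegfb and Vegfd were higher and Vegfc was lower. Vegfd rose from 47.7 ± 1.55 to 58.5 ± 1.70 FPKM (difference 0.29, adjusted p = 0.0038 in limma) and Vegfa from 15.9 ± 0.90 to 19.2 ± 0.556 FPKM (0.26, adjusted p = 0.019 in limma). Without control replicate 2 or any 1 conditioned replicate, the adjusted p of Vegfa was 0.057 to 0.079. Vegfb had 14.6 ± 0.769 and 17.7 ± 1.73 FPKM and Vegfc 3.92 ± 0.0769 and 3.24 ± 0.519 FPKM, and neither passed. Every conditioned library was above every control library for Vegfb and below for Vegfc, as for 14.3% and 11.6% of all genes tested. The adjusted p of Vegfb was 0.087 in limma, and 0.019 without conditioned replicate 3. The ligand Pgf was below the filter (0.546 ± 0.107 and 0.231 ± 0.144 FPKM). The VEGF receptors were below the filter, with Kdr at 0.106 to 0.203, Flt1 at 0.0169 to 0.0590 and Flt4 at 0.190 to 0.326 FPKM.

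Proteases that cleave semaphorins had 1 lower gene of 6 tested, against 2.49% of all genes tested that were lower. Adamts1, a secreted metalloprotease known to cleave Sema3c, fell from 55.2 ± 0.839 to 46.9 ± 0.507 FPKM (difference -0.23, adjusted p = 0.0046 in limma). Furin, the convertase that processes class 3 semaphorins, had 28.0 ± 1.23 and 29.4 ± 0.849 FPKM and did not pass. Among 31 tested genes of plexin and neuropilin signalling inside the cell, 1 rose and 2 fell. Over all genes tested, 4.04% rose and 2.49% fell, so these counts are descriptions. Rnd3, a GTP-binding protein that counters contractility, fell from 58.1 ± 0.847 to 42.3 ± 0.785 FPKM (-0.45, adjusted p = 1.5e-04 in limma). Dpysl3, a collapsin response mediator protein, fell from 39.1 ± 2.08 to 31.6 ± 0.433 FPKM (-0.30, adjusted p = 0.0060 in limma). Mical2, an actin-oxidizing enzyme, rose from 16.8 ± 0.887 to 19.5 ± 0.352 FPKM (0.20, adjusted p = 0.044 in limma), but had adjusted p-values of 0.082 to 0.16 when any 1 library other than control replicate 1 was left out. The actin-severing protein Cfl1 (335 ± 9.61 and 343 ± 18.7 FPKM) and the GTPase Rac1 (82.7 ± 0.367 and 79.4 ± 2.66 FPKM) were abundant and did not pass.

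**Figure D4:**
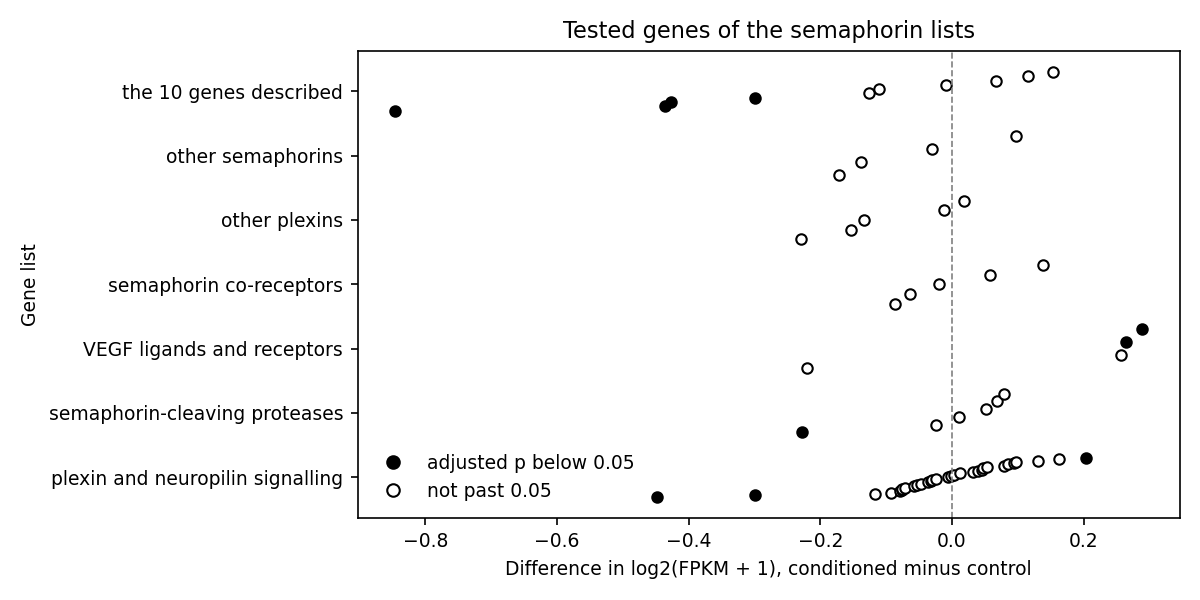
Difference in log2(FPKM + 1) for the tested genes of each list (conditioned minus control), 1 point per gene, filled where the adjusted p was below 0.05. Sema3c, at -0.85, is the lowest point, and the other semaphorins, other plexins and co-receptors have open points only.

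Most, but not all, tendon markers were lower alongside the 4 semaphorins. Of 9 tendon cell markers 8 were tested and 5 fell (Tnmd, Thbs4, Fmod, Col1a1 and Col1a2), against 2.49% of all genes tested. The 3 that did not pass were Scx (13.2 ± 0.551 and 11.5 ± 0.433 FPKM), Mkx (1.38 ± 0.113 and 1.39 ± 0.0762 FPKM) and Pdgfra (34.0 ± 1.67 and 38.3 ± 0.179 FPKM). Every conditioned library was below every control library for Scx and above for Pdgfra. The list, mostly Col1a1 and Col1a2, summed to 4525 to 4648 FPKM across control and 3577 to 3677 FPKM across conditioned libraries. Tppp3 itself was at 0.724 to 1.12 FPKM, below the filter. Among 8 endothelial markers only Tek, an angiopoietin receptor, was tested, and it fell (5.52 to 6.28 against 4.16 to 4.69 FPKM, adjusted p = 0.023 in limma), while Pecam1 was at 0 to 0.0830 and Cdh5 at 0 to 0.0453 FPKM. The endothelial list, mostly Tek, summed to 5.95 to 6.74 against 4.69 to 5.12 FPKM. Below the filter, every conditioned library was above every control library for Erg (0.186 to 0.278 FPKM) and below for Pecam1. Of 16 sensory neuron markers 11 were among the deposited genes and 2 were tested. Tubb3 fell (means of 22.6 against 16.5 FPKM), and Uchl1 did not pass (3.41 against 3.42 FPKM, adjusted p = 0.997 in limma). The list, mostly Tubb3, summed to 26.0 to 29.7 against 20.5 to 22.3 FPKM, with Calca at 0 to 0.136 and Prph at 0.0690 to 0.153 FPKM. Isl1 at 0.443 to 0.934 and Nefm at 0.460 to 0.619 FPKM were higher than these but also below the filter. No marker of the remaining cell types passed in limma. Macrophage markers summed to 3.71 to 5.18 against 3.22 to 4.16 FPKM, with Ptprc at 0 to 0.00930 FPKM. Those tested were Lyz2 (2.68 ± 0.457 and 1.79 ± 0.301 FPKM) and Cd68 (1.39 ± 0.317 and 1.62 ± 0.186 FPKM). Glial markers summed to 3.41 to 4.08 against 2.25 to 3.48 FPKM, with Sox10 at 0 to 0.0279 FPKM. The only one tested was S100b (2.42 ± 0.173 and 1.50 ± 0.522 FPKM). The mural list, mostly Pdgfrb (120 ± 0.844 and 121 ± 3.37 FPKM), summed to 142 to 145 against 138 to 145 FPKM. Within it, every conditioned library was below every control library for Notch3 (9.78 ± 0.612 and 8.35 ± 0.166 FPKM, adjusted p = 0.070 in limma). The same held for Rgs5, below the filter (0.932 ± 0.163 and 0.500 ± 0.0543 FPKM), and the groups of the other mural markers overlapped. The muscle marker Des was at 2.72 to 3.33 against 2.26 to 2.66 FPKM. The part of these markers in the semaphorin results was not tested, and in bulk RNA fewer cells of a type and less RNA per cell cannot be told apart.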

How the data were processed

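RNA-seq was compared between 3 conditioned and 3 control libraries. The authors deposited FPKM values, per the file headers, for 24413 genes. HISAT2 2.0.5, CASAVA and mm10 are listed without a role in the submitters' processing notes, and which counter, annotation and strand setting were used is not given in the sources used here. Within a gene, values were whole multiples of 1 fragment's worth (tolerance 0.01 fragment, 24413 genes), which gave 18600639 to 25827461 fragments per library. For genes with few fragments a common factor was set from the GENCODE M21 exon length, so totals are estimates. The median ratio of genes to their geometric mean was equal in all 6 libraries (1.003604), so the deposited values were already on a median-ratio scale. Genes averaging 1 FPKM or more (11678) were tested as log2(FPKM + 1) by limma 3.58.1 in R 4.3.3, two-sided, with trended and robust eBayes, only the medium as a term and a threshold of 0.05 on the adjusted p. Chi-square per degree of freedom between libraries of a group was 3.13 to 6.98, and none was treated as a repeat deposit. Coordinates are those of GENCODE M21 (mm10). Of the 10 genes only Nrp1 overlapped another gene by exons, the microRNA gene Mir1903. Figures were drawn with matplotlib 3.10.9 from tables made in pandas 2.3.3 under Python 3.11.15.

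The genes and lists were chosen with earlier results of these data known, so list counts are descriptions. All 10 genes are named. Each pathway list gave up to 6 genes past the threshold, by size, and the 2 most abundant that did not pass. Each of the 10 that passed gave the 3 genes most like it, and marker lists gave their defining genes. Alternatives were a pseudocount of 0.1, no filter, a filter of 5 FPKM, median-ratio, quantile and total-fragment scaling (the last chosen after seeing the data), voom on recovered fragments, plain eBayes, a replicate block, and leaving out each library.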

Additional observations from a re-analysis of the deposited data

How the results depend on the processing

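Of the 4 falls, that of Sema3c passed in all 15 other settings (-0.91 to -0.79). Without a filter, over more genes, Sema3d, Sema3f and Sema7a had adjusted p-values of 0.087, 0.12 and 0.090 in limma, leaving 1 of the 10 genes and 492 of all genes past the threshold. Plain eBayes called 2 of the 10 and 566 of all genes, and leaving out 1 library, with fewer samples, 1 to 2 of the 10 and 394 to 678 of all genes. With 5 FPKM as the filter, 6 of the 10 were tested and 3 called, against 734 of 7088 genes. By voom 5 were called, with Nrp2. Median-ratio scaling changed no call, by its construction. Same-numbered libraries did not deviate together (correlations -0.095, -0.0080 and -0.048). These values show no large shared effect of the number, and cannot tell whether libraries were paired by animal or batch. A replicate block, which spends degrees of freedom, called 1 of the 10 and 390 of all genes. Of the VEGF list, 1 gene passed without a filter, with the block and with some libraries left out.

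Some genes with differences near 0, none past the threshold, changed sign. With 1 library left out, Sema3a ran from -0.063 to 0.042 (0.042 without control replicate 1 and 0.013 without conditioned replicate 2), Sema3e from -0.037 (without conditioned replicate 3) to 0.13, Sema4c from -0.069 to 0.041 (without conditioned replicate 2) and Plxna1 from -0.047 to 0.013 (without control replicate 1). Plxnb2 and Cfl1 were at -0.010 and -0.011 with quantile normalization. The cause was not tested where none is stated. Sema3d, with 200 to 471 fragments per library, had the lowest fragment counts of the 4.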

Other observations

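Sema3d, Sema3a, Sema3e and Sema3c lie in that order on chromosome 5 from 12383385 to 17730268 (mm10), an interval chosen after the values were seen. Of 24 genes of the table inside it 7 were tested, and 2 fell, Sema3d and Sema3c, against 2.49% of all genes tested. These 2 genes set its ends, so their place in it follows from the choice of interval. The 3 tested genes other than semaphorins did not pass. Cacna2d1, a calcium channel subunit, had 5.80 ± 0.465 FPKM for control and 5.77 ± 0.0345 FPKM for conditioned medium. Hgf, hepatocyte growth factor, had 11.6 ± 1.31 and 14.0 ± 0.405 FPKM, and the pseudogene Gm8991 3.84 ± 0.709 and 4.97 ± 0.455 FPKM (SD, n = 3 each). Both Hgf and Gm8991 were higher at an unadjusted p below 0.05 in limma, as were 11.2% of all genes tested. For Hgf every conditioned library was above every control library.

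The genes whose log2 levels followed those of Sema3c most closely over the 6 libraries were Col14a1, a fibril-associated collagen (Pearson r = 0.999), Lgr5, an R-spondin receptor (0.998), and Flrt2, a membrane guidance protein (0.997). For Sema3d they were Slit2 (0.997), Prss35 (0.995) and Sh3pxd2b (0.994), and for Sema3f Pcyt1b (0.996), Nr4a2 (0.995) and Wsb1 (0.995). For Sema7a they were Nr2f1, Eif2ak3 and Arc (0.985, 0.985 and 0.985). The genes named for Sema3c and Sema3d were themselves lower past the threshold. Those named for Sema3f and Sema7a did not pass (adjusted p of 0.064 to 0.36 in limma). The correlations are descriptions, the highest of 11677 genes, over libraries that share the same media.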
